A study of Rattus norvegicus with 16 samples.

Results

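The genes described here are *Hmgcs1*, *Idi1*, *Fdps*, *Fdft1*, *Sqle*, *Lss*, *Cyp51* and *Insig1*, a set of cholesterol genes measured after silencing of the transcription factor Pax8 in rat thyroid cells. They were found by matching the RefSeq accession of each array probe to a gene symbol, which gave 14 probes for the 8 genes, out of 41012 probes and 8899 named genes on the array. The cells were PCCl3, a differentiated rat thyroid follicular line, all grown in one medium with donor calf serum and a hormone mixture that holds TSH and insulin. Cells of one group received an siRNA directed at *Pax8* (si*Pax8*, 10 ng/ml) and those of another a scrambled siRNA at the same dose (siScramble), while the control called wild type (wt) carried no siRNA. The study's methods speak of the wt cells as treated with the transfection reagent, whereas another of its descriptions calls them not transfected, so the reagent may or may not be part of the difference from wt. Each of the 16 two-colour arrays compared si*Pax8* with one control: 8 arrays for wt and 8 for siScramble, each as 4 replicates hybridized in both dye orientations. The study's description of its design gives 4 biological replicates in both comparisons and does not say whether the si*Pax8* samples were the same. The comparisons therefore cannot be assumed to be independent of each other. The RNA came from whole cultures, and fewer expressing cells and less RNA per cell cannot be told apart.

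Cholesterol is built from acetyl-CoA by a chain of enzymes that first makes HMG-CoA and mevalonate, then isoprenoid units, then squalene, and last the sterol rings. Transcription of most of these enzymes is driven by SREBP proteins, which are released from the endoplasmic reticulum when sterols are scarce and are held there by the INSIG proteins when sterols are plentiful. *Insig1* is itself a target of SREBP, so it serves both as a brake on the pathway and as a readout of it. Export of cholesterol is under the opposite control, through liver X receptors that respond to oxysterols. Although the set is named for synthesis and uptake, none of the 8 genes is an uptake receptor: 7 are synthesis enzymes and *Insig1* is a sterol sensor, and uptake genes are therefore given from a separate list.

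The 7 enzymes were lower against wt cells and *Insig1* was not, and promoters of both are shown first. RefSeq promoter entries (build GRCr8, 250 bases before to 50 after the annotated start) were matched for *Hmgcs1*, *Idi1*, *Fdps*, *Lss*, *Cyp51* and *Insig1*. They were searched on both strands for a single exact string of the sterol response element, TCACNCCAC, and for the E-box CACGTG. The CCAAT box (CCAAT, or ATTGG on the other strand), which binds the factor NF-Y, was searched as well. In the members no match shared bases with another motif. A CCAAT box lay in 5 of the 6 members (83.3%), in 13 of 16 promoters of the cholesterol synthesis list (81.2%), 5 of which are members, and in 37.5% of all 33469 promoters. TCACNCCAC was found in 0 of the 6 members and in 1.12% of all promoters, and CACGTG in *Insig1* alone among the members and in 6.42% of all promoters. The first base of the match lay 188 and 133 bases before the start in *Hmgcs1*, 66 and 35 in *Idi1*, 130 and 85 in *Fdps*, 82 in *Lss* and 193 in *Insig1*, while *Cyp51* held none of the 3 motifs. The 250 bases before the start are printed for an enzyme of an early step, for the largest fall against wt cells, for a gene with boxes in both directions, for the promoter without a match and for the sensor. They span chr2:53382054-53382303 (plus strand), chr17:66547525-66547774 (minus strand), chr2:176804817-176805066 (minus strand), chr4:30991443-30991692 (plus strand) and chr4:8057770-8058019 (minus strand). Capitals mark CCAAT or its complement ATTGG. A match is a run of letters and not a measured binding site. A promoter without the exact string TCACNCCAC can hold other forms of the element, which were not searched.
Hmgcs1: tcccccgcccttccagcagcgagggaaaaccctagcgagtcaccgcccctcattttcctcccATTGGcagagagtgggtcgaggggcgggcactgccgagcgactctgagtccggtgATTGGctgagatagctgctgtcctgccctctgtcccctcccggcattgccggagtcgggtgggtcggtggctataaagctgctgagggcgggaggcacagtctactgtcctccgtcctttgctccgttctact
Idi1: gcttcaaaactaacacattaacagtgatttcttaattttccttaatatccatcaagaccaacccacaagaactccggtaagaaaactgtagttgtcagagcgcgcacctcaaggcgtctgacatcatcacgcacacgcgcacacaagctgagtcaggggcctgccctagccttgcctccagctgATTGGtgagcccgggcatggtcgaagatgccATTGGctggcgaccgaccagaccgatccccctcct
Fdps: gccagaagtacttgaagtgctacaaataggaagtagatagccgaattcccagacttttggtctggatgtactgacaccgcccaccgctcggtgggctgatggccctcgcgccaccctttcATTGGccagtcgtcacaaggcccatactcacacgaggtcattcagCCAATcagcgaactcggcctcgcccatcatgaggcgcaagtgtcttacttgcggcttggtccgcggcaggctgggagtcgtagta
Cyp51: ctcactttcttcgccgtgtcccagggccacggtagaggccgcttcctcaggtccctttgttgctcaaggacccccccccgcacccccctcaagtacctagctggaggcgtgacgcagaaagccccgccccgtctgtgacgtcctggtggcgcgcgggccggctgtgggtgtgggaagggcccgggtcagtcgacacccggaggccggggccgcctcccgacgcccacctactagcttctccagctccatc
Insig1: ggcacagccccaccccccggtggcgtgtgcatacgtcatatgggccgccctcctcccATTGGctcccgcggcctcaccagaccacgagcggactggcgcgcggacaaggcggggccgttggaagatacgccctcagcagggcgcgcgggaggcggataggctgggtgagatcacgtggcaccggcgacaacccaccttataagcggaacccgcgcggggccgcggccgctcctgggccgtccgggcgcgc

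The targeted gene was checked next. *Pax8*, measured by 1 probe, had log2 ratios of si*Pax8* over wt of -0.84, -0.57, -0.59 and -0.26 in replicates 1 to 4, a mean of -0.56 ± 0.24 (SD, n = 4) or 67.6% of wt (adjusted p = 0.000472). Over siScramble the values were -0.58, -0.29, -0.12 and -0.0070, with a mean of -0.25 ± 0.25 (SD, n = 4) and an adjusted p of 0.143. Each replicate lay below 0, but the fall against siScramble was as large as its spread and did not pass the threshold. These values are of RNA. For the protein, the study reports an immunoblot with less Pax8 in si*Pax8* cells than in either control. All adjusted p given are two-sided values from limma with Benjamini-Hochberg adjustment over 41012 probes, and a gene was called only when every one of its probes had an adjusted p below 0.005 in one direction.

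Against wt cells, 7 of the 8 genes were lower and none was higher; *Insig1* was the exception. Of all probes, 8.23% were lower at this threshold. That share includes dim probes, whereas every probe of the set was well above background. The share among probes well above background was not counted. The fall was modest in size: the mean log2 ratios of the 7 enzymes ran from -0.61 (*Idi1*) to -0.25 (*Lss*), with a median of -0.34, against a median over all probes of -0.0036. Their 28 replicate values were all below 0. Probes with every one of the 4 replicates below 0 made up 21% of all probes, and 10 of the 14 probes of the set did so.

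The enzymes of the early, mevalonate and isoprenoid steps are described first. *Hmgcs1*, which makes HMG-CoA, had log2 ratios over wt of -0.37, -0.53, -0.42 and -0.51, a mean of -0.46 ± 0.08 (SD, n = 4), or 72.9% of wt. Its probes had adjusted p of 8.28e-06 and 0.000273. *Idi1*, the isomerase that interconverts the isoprenoid building blocks, fell furthest: its values were -0.51, -0.63, -0.62 and -0.66, a mean of -0.61 ± 0.06 (SD, n = 4) or 65.7% of wt, with adjusted p of 1.45e-06 and 6.41e-06. *Fdps*, which joins these units into farnesyl diphosphate, the branch point to sterols, ubiquinone and prenylated proteins, had -0.36, -0.38, -0.26 and -0.37. Its mean was -0.34 ± 0.05 (SD, n = 4), and the larger adjusted p of its pair of probes was 0.000132. For each of these genes all 4 replicates lay well below 0.

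In the steps committed to sterols the falls were of the same order. *Fdft1*, squalene synthase, had -0.35, -0.18, -0.30 and -0.47, a mean of -0.32 ± 0.12 (SD, n = 4), with an adjusted p of 0.000681. *Sqle*, the epoxidase that opens the oxygen-dependent part of the pathway, had -0.49, -0.38, -0.52 and -0.47, a mean of -0.47 ± 0.06 (SD, n = 4) or 72.4% of wt, with an adjusted p of 1.30e-05. *Lss*, which closes the rings to lanosterol, had -0.25, -0.13, -0.29 and -0.34 and a mean of -0.25 ± 0.09 (SD, n = 4), the smallest fall among the enzymes (adjusted p = 0.000982). *Cyp51*, the demethylase of lanosterol, had -0.29, -0.21, -0.39 and -0.24, a mean of -0.29 ± 0.08 (SD, n = 4) or 82.1% of wt (adjusted p = 0.000382). Replicate 2 was the highest value for *Fdft1*, *Sqle*, *Lss*, *Cyp51* and *Insig1* but the lowest for *Hmgcs1* and *Fdps*. It thus lay on no single side across the set. *Fdft1* lost its call without replicate 3 (adjusted p = 0.00600), and *Lss* did so without replicate 3 (adjusted p = 0.0105) and without replicate 4 (adjusted p = 0.00736).

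*Insig1* did not follow the enzymes against wt cells. The mean over its 4 probes was -0.20, 0.0063, -0.01 and -0.13 in replicates 1 to 4, or -0.08 ± 0.10 (SD, n = 4), and the adjusted p of the probes ran from 0.120 to 0.880. The probes did not agree in every replicate. In replicate 1 the values were -0.37, -0.31 and -0.23 for A_44_P143886, A_44_P406074 and A_44_P547168 but 0.12 for A_44_P406069. The 95% intervals of the log2 ratio reached from -0.25 to 0.02 for A_44_P143886 and from -0.12 to 0.09 for A_44_P406069. They reached from -0.22 to 0.01 for A_44_P406074 and from -0.19 to -0.0064 for A_44_P547168, the only interval without a positive bound. The mean falls of *Lss* (-0.25) and *Cyp51* (-0.29) lay outside all of these. The interval of *Lss* itself, from -0.34 to -0.17, overlapped all but that of A_44_P406069. *Insig1* was not tested against the enzymes.

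**Figure D1:**
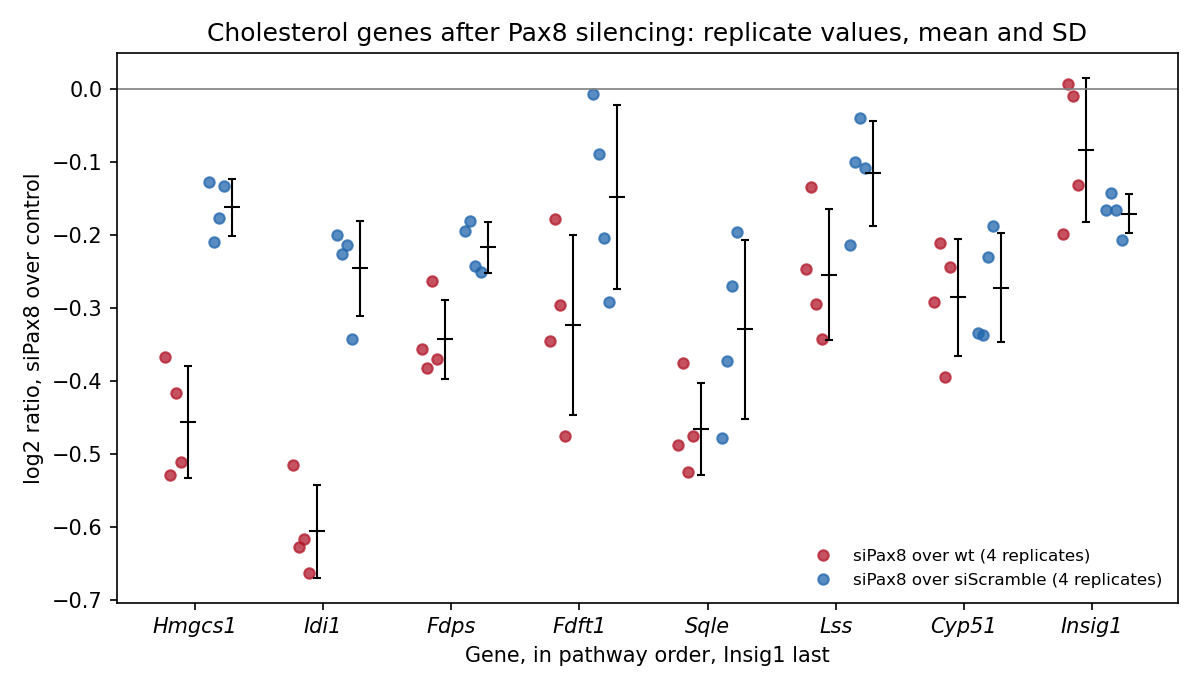
Log2 ratio of siPax8 over control (y axis) for the 8 genes (x axis), each coloured point being one replicate averaged over its probes and dye orientations; black bars give the mean and SD of 4 replicates. All points of the 7 enzymes lie below 0 in both comparisons, and those of Hmgcs1, Idi1 and Fdps against wt do not overlap with those against siScramble.

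Against siScramble cells the 8 genes also lay below 0, and the means of the 7 enzymes were closer to 0 than against wt cells. All 32 replicate values of the 8 genes were below 0, as were the 4 replicates of each of the 14 probes; probes with this property made up 15.3% of all probes. The median log2 ratio of the 8 genes was -0.19, against -0.0037 for all probes. At an adjusted p below 0.005 only *Cyp51* was lower, where 0.897% of all probes were lower. At an adjusted p below 0.05 *Idi1*, *Fdps*, *Sqle* and *Cyp51* were lower, 4 of the 8 genes and 10 of the 14 probes, where 4.81% of all probes were lower. All 8 genes had an unadjusted p below 0.05 for each probe. The share of all probes at that unadjusted cutoff was not counted, here or for the gene lists below.

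*Cyp51* had log2 ratios over siScramble of -0.33, -0.34, -0.23 and -0.19, a mean of -0.27 ± 0.08 (SD, n = 4) or 82.8% of siScramble, and its adjusted p of 0.00467 was just under the threshold. *Sqle* had the largest mean, -0.33 ± 0.12 (SD, n = 4), from -0.48, -0.37, -0.27 and -0.20, with an adjusted p of 0.00717. *Idi1* had -0.20, -0.23, -0.21 and -0.34, a mean of -0.25 ± 0.07 (SD, n = 4), and adjusted p of 0.00746 and 0.0112. *Fdps* was split by the threshold: its probes had similar means, -0.23 for A_44_P143567 (adjusted p = 0.00315) and -0.20 for A_44_P432965 (adjusted p = 0.00709), and the replicates were -0.19, -0.18, -0.24 and -0.25. The call of *Cyp51* was lost when any one replicate was left out, with adjusted p from 0.00755 without replicate 4 to 0.0355 without replicate 2.

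*Hmgcs1*, *Fdft1* and *Lss* were closest to 0 on the enzyme side, together with *Insig1*. *Hmgcs1* had -0.13, -0.21, -0.18 and -0.13, a mean of -0.16 ± 0.04 (SD, n = 4), and its probes had adjusted p of 0.00556 and 0.0695. *Fdft1* varied most, with -0.0072, -0.09, -0.20 and -0.29 around a mean of -0.15 ± 0.13 (SD, n = 4; adjusted p = 0.119). *Lss* had -0.21, -0.10, -0.04 and -0.11, a mean of -0.12 ± 0.07 (SD, n = 4; adjusted p = 0.0885). For *Insig1*, with -0.17, -0.14, -0.17 and -0.21, the replicates lay closer together than for any other gene of the set, at a mean of -0.17 ± 0.03 (SD, n = 4). The *Insig1* value is a mean over 4 probes, against 1 or 2 for the other genes, and the SDs of its single probes ran from 0.02 to 0.11. The adjusted p of its probes were 0.00653, 0.00816, 0.00842 and 0.0996, the last for A_44_P406069, the probe that had also stood apart against wt cells.

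**Figure D2:**
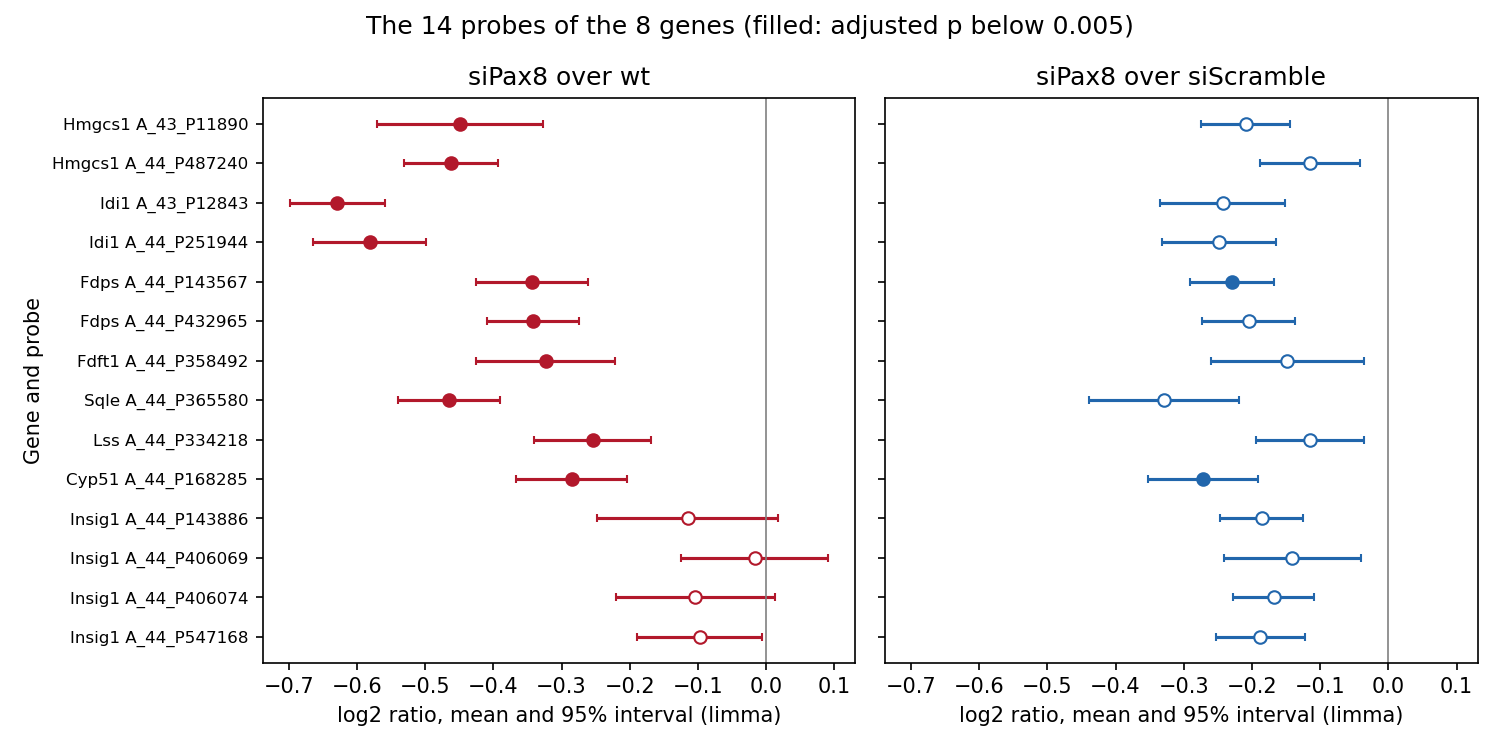
Mean log2 ratio of siPax8 over control with its 95% interval from limma (x axis) for the 14 probes (y axis), against wt (left) and siScramble (right); filled points have an adjusted p below 0.005. 10 probes are filled on the left, none of them for Insig1, and 2 on the right, 1 each for Fdps and Cyp51, and on the right all 14 intervals lie below 0.

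Whether the fall from wt exceeded the fall from siScramble was tested by limma on the dye-averaged values of both comparisons as separate groups. Of the 8 genes, 1 differed at the threshold, *Idi1*, whose ratio to wt was lower than its ratio to siScramble by 0.39 for A_43_P12843 (adjusted p = 0.000792) and 0.33 for A_44_P251944 (adjusted p = 0.00267) on the log2 scale. *Hmgcs1* differed by one probe (A_44_P487240, adjusted p = 0.000467) and not by the other (A_43_P11890, adjusted p = 0.0496). Further below wt than below siScramble were 1.78% of all probes. For *Cyp51* the difference was -0.01, with a 95% interval from -0.13 to 0.10, and for the 4 probes of *Insig1* it was positive, from 0.06 to 0.12, with adjusted p of 0.362 and above. If the si*Pax8* samples were shared, which is not stated, this test in effect sets wt against siScramble cells. The fit did not pair them. Deviations of the same replicate number correlated unevenly across the comparisons (0.40, 0.18, 0.04 and 0.57). Without replicate 2, 3 or 4 no gene of the set passed it, whereas *Idi1* did so without replicate 1.

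The dye orientations agreed in direction, with 1 exception, but not in size. Of the 64 single-array values of the 8 genes, 60 were below 0 against wt and 57 against siScramble. The mean over the 4 arrays of an orientation was below 0 for all 16 pairs of gene and orientation against wt and for 15 of 16 against siScramble. The exception was *Hmgcs1* over siScramble with si*Pax8* in Cy3, at 0.02, against -0.34 with si*Pax8* in Cy5. *Hmgcs1* over wt was -0.27 and -0.64. *Sqle* over wt was -0.76 when si*Pax8* was labelled with Cy3 and -0.17 for the swapped label, and over siScramble -0.60 and -0.06. *Cyp51* over wt was, in the same order, -0.51 and -0.06, and over siScramble -0.47 and -0.08. *Lss* over wt was, again in this order, -0.39 and -0.12, and over siScramble -0.22 and -0.0090. For these genes the single arrays of the orientations did not overlap, the gaps had the same sign against both controls, and a dye effect cancels in the mean of both orientations. The median of the 8 genes against wt was -0.40 for arrays with si*Pax8* in Cy3 and -0.20 for the other orientation. With one orientation alone, 5 of the genes were lower than wt in the first case, where 4.37% of all probes were lower, and 3 in the second, where 10.5% of all probes were.

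**Figure D3:**
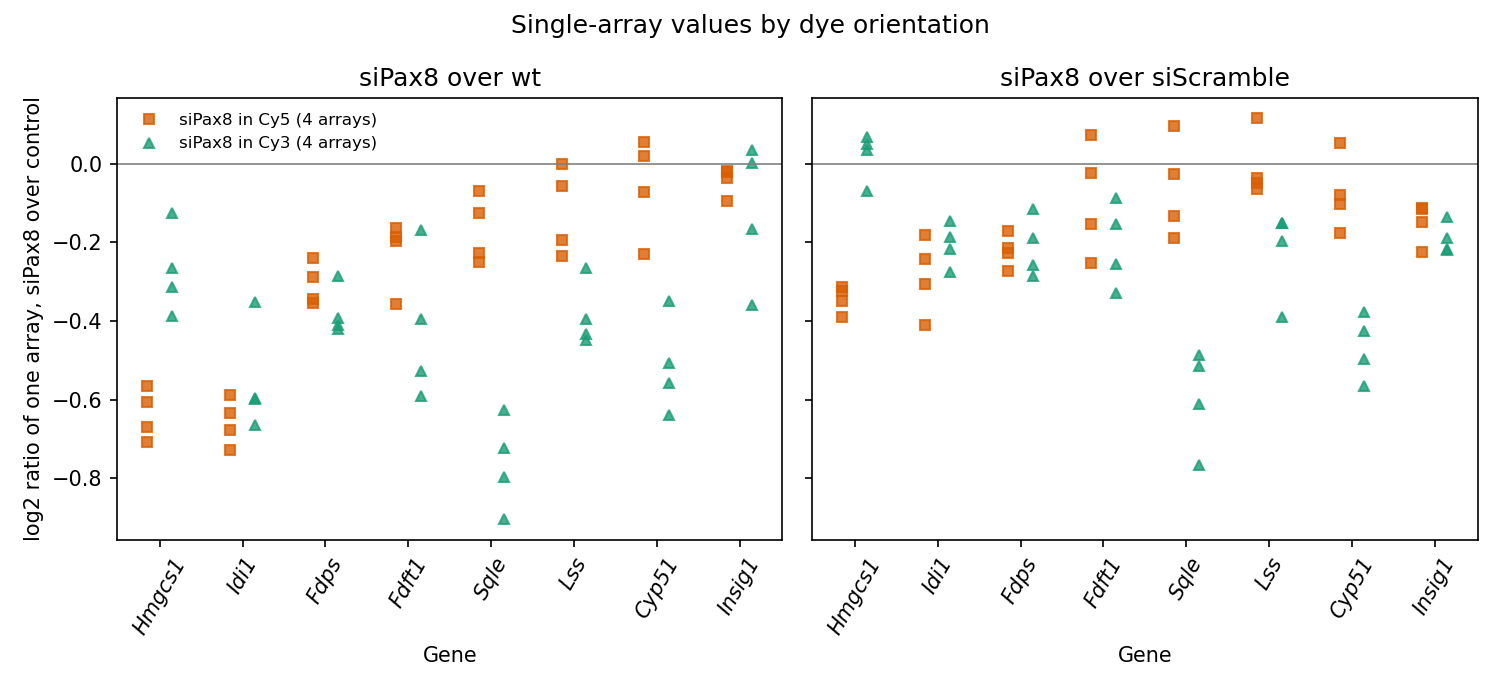
Log2 ratio of siPax8 over control on single arrays (y axis) for the 8 genes (x axis), with siPax8 in Cy5 (squares, 4 arrays) or in Cy3 (triangles, 4 arrays), against wt (left) and siScramble (right). Squares and triangles separate for Sqle, Lss and Cyp51 in the same direction and for Hmgcs1 in the other, and they overlap for Idi1 over wt.

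The direction was also read within slides. Each of the 4 slides held 2 arrays of each comparison, one per orientation. Within a slide, the median of the 8 genes over wt was between -0.40 and -0.31, and over siScramble it was between -0.22 and -0.19. Of 32 values of gene and slide, 31 were below 0 against wt and 32 against siScramble. Every probe of the set was well above background in both channels on all 16 arrays, none was saturated or marked as an outlier, and their mean log2 intensities lay from 9.1 to 14.38. By the software's own processed signals the median of the 8 genes against wt was -0.35, but just 1 of them, *Idi1*, kept an adjusted p below 0.005 in each probe, in a fit that called 534 probes lower in place of 3374.

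The other enzymes of cholesterol synthesis, taken from a list of 19 of which 18 were measured, were mostly lower against wt cells as well. Of the 11 that are not members, 6 were lower, 5 did not pass and none was higher, and their median log2 ratio was -0.20. Among all probes, 8.23% were lower than wt. *Hsd17b7*, a sterol ketone reductase, had a mean of -0.49 ± 0.09 (SD, n = 4), and *Mvk*, mevalonate kinase, of -0.37 ± 0.04 (SD, n = 4). *Msmo1* (-0.29), *Acat2* (-0.25), *Dhcr7* (-0.23) and *Mvd* (-0.20) were lower as well. The values of *Pmvk* (-0.11), *Nsdhl* (-0.10), *Ebp* (-0.12) and *Sc5d* (-0.15) did not pass, nor did *Tm7sf2*, at 0.15 the only enzyme with a positive mean against wt (adjusted p = 0.00516). *Lbr* was not measured under this name. The count of 6 was 3 without replicate 4 and 1 with the software's processed signals. Calls were lost for *Acat2* without replicate 2 or 4 (adjusted p = 0.00698 and 0.0111), *Mvd* without 3 or 4 (0.0118 and 0.0103), *Dhcr7* without 2 or 4 (0.00646 and 0.0115) and *Msmo1* without 3 (0.00539), but for neither *Hsd17b7* nor *Mvk* without any one replicate.

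Over siScramble, 0 of these 11 enzymes passed limma at an adjusted p below 0.005. At an unadjusted p below 0.05, 7 were lower, with no share of all probes counted at that cutoff. Their median was -0.11. *Acat2*, which makes acetoacetyl-CoA, was at -0.29 ± 0.10 (SD, n = 4; adjusted p = 0.00594), similar to its value over wt. *Ebp* was at 0.0014 and *Pmvk* at -0.01.

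**Figure D4:**
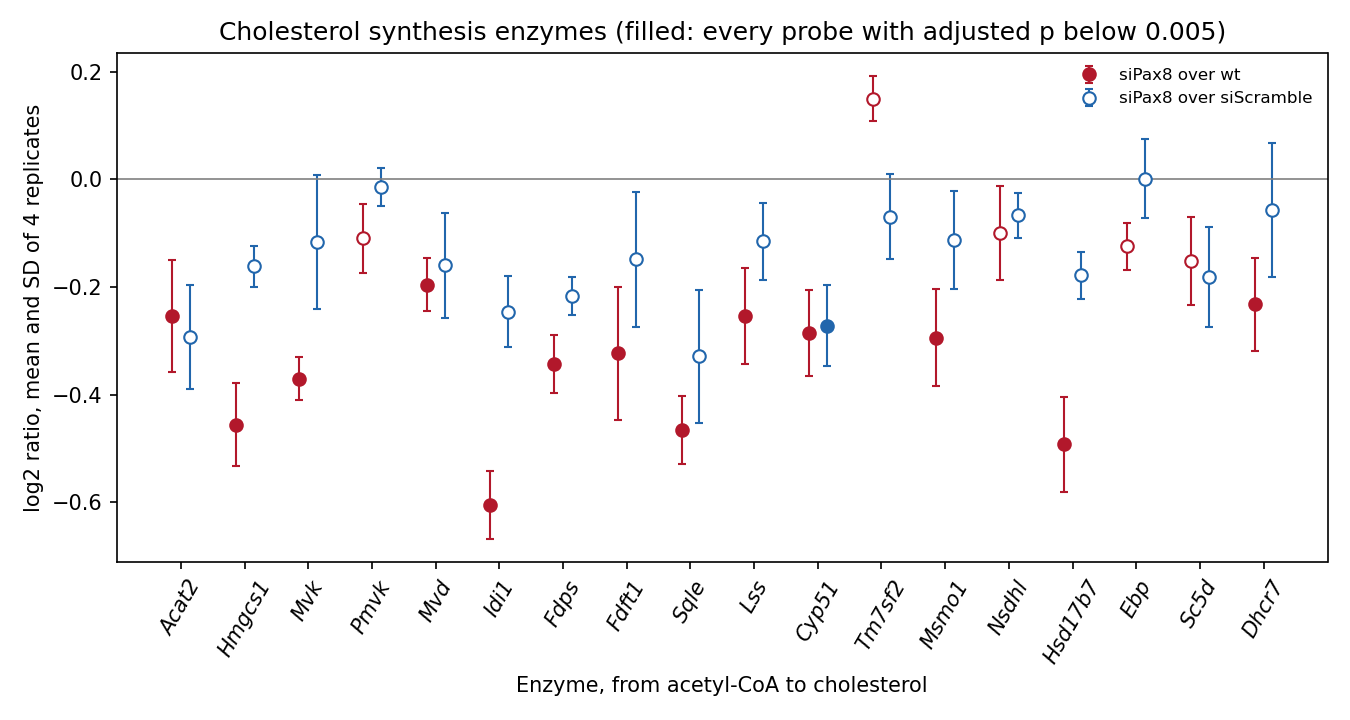
Mean log2 ratio of siPax8 over control with SD of 4 replicates (y axis) for the 18 measured enzymes in the order of the pathway (x axis), against wt (red) and siScramble (blue); filled points have every probe at an adjusted p below 0.005. 13 points are filled against wt and 1, Cyp51, against siScramble, and Tm7sf2 alone lies above 0 against wt.

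Sensor genes gave no calls, while uptake and transport genes gave calls in both directions. Of 10 listed genes of sterol sensing and SREBP processing, 6 were measured and 0 passed limma against either control, with 1 at an unadjusted p below 0.05 in each. These were *Mbtps1* against wt (-0.14, adjusted p = 0.0148) and *Insig1* against siScramble. *Srebf2*, which encodes the main SREBP of the cholesterol pathway, had probes that disagreed over wt. A_44_P382747 was higher, at 0.24 (adjusted p = 0.000452), and A_44_P504215 lay at -0.07 (adjusted p = 0.115), so the gene was not called. Over siScramble they were at 0.18 and 0.02 (adjusted p = 0.128 and 0.799). *Srebf1* and *Scap* were not measured under these names. Of 6 measured uptake and transport genes, 2 were above background on no array. Of the 6, 1 was lower and 2 were higher than wt, where 8.23% and 7.04% of all probes were. *Scarb1*, the receptor for high density lipoprotein, was lower (-0.21 ± 0.06). *Npc2*, which carries cholesterol out of lysosomes, was higher (0.21 ± 0.08), as was *Lipa*, the lysosomal lipase that frees it from esters (0.22 ± 0.09; SD, n = 4 each). *Lipa* was also higher than siScramble by limma (0.28 ± 0.05, SD, n = 4, adjusted p = 0.00238), where 1.22% of all probes were. The calls of *Scarb1* and *Npc2* did not hold without replicate 2, 3 or 4 (adjusted p from 0.0161 to 0.0306 and from 0.00847 to 0.0148), nor that of *Lipa* over wt without replicate 3 or 4 (0.0134 and 0.0114), nor that of *Lipa* over siScramble without any one replicate (from 0.00813 to 0.0183).

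Several genes of cholesterol export were higher. Of 10 measured genes of efflux, esterification and oxysterol formation, 5 were higher than wt, where 7.04% of all probes were higher, 2 were higher than siScramble, where 1.22% of all probes were, and 0 were lower by limma, at an unadjusted p below 0.05 as well. *Abca1*, which loads cholesterol onto apolipoprotein A-I, had log2 ratios over wt of 1.65, 1.73, 1.72 and 1.74, a mean of 1.71 ± 0.04 (SD, n = 4) or 3.27-fold (adjusted p = 7.42e-09). Over siScramble it had 0.61, 0.66, 0.76 and 0.66, a mean of 0.67 ± 0.07 (SD, n = 4; adjusted p = 0.000126). *Abcg1*, its partner in export, was at 0.64 ± 0.13 over wt and 0.24 ± 0.06 over siScramble (SD, n = 4; adjusted p = 1.43e-05 and 0.00438). *Lcat*, which esterifies cholesterol in plasma, was at 0.45 over wt, *Cyp27a1*, a sterol hydroxylase, at 0.38 and *Apoe* at 0.19. The call of *Abcg1* over siScramble was lost without any one replicate, with adjusted p from 0.00986 to 0.0361, and that of *Apoe* over wt without replicate 1, 3 or 4, with adjusted p from 0.00793 to 0.0336. With the software's processed signals 3 of the 10 were higher than wt and 0 higher than siScramble.

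**Figure D5:**
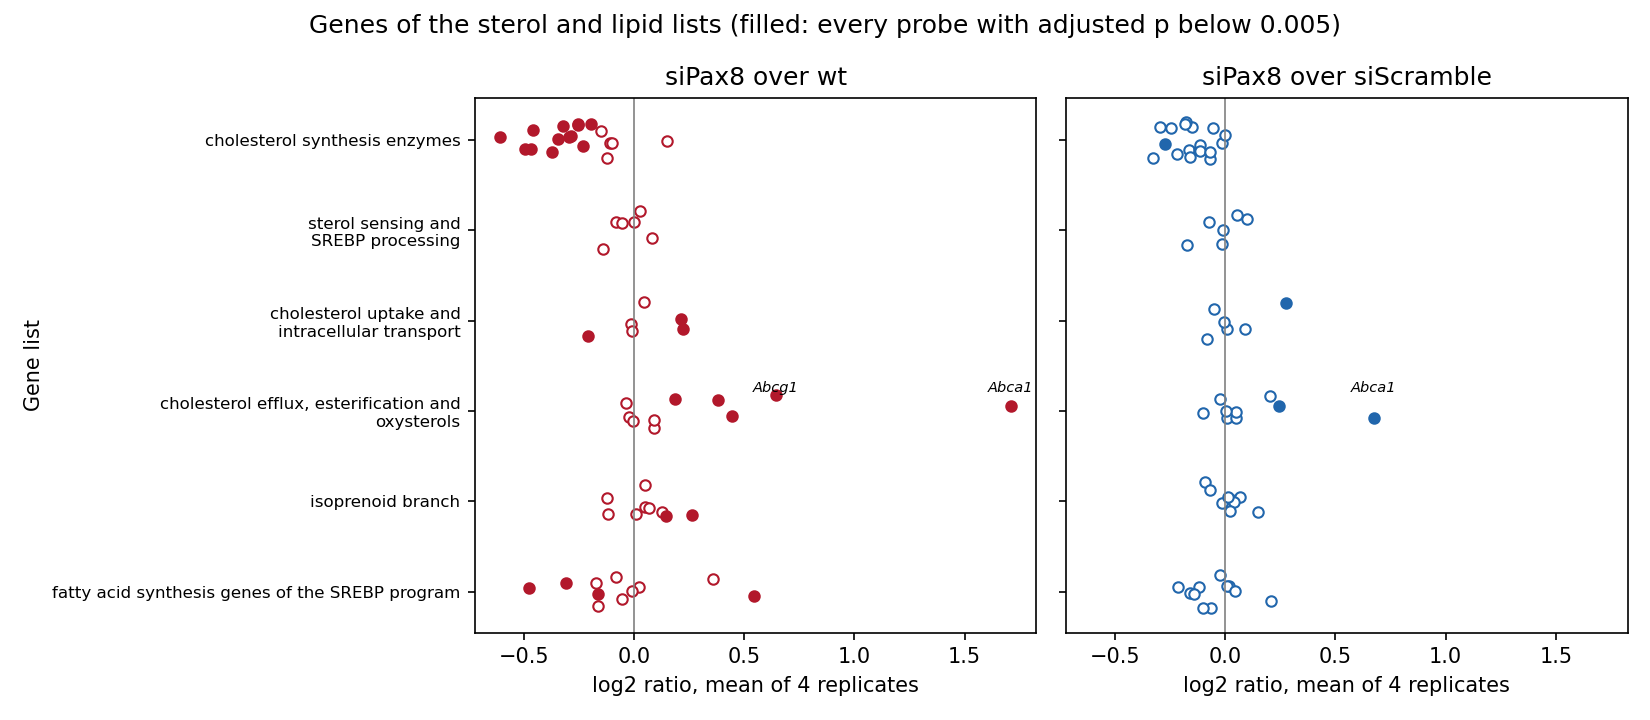
Mean log2 ratio of siPax8 over control (x axis) for each measured gene of 6 lists (y axis, points spread vertically for legibility), against wt (left) and siScramble (right); filled points have every probe at an adjusted p below 0.005. Against wt, 17 of 18 synthesis enzymes lie below 0 and export genes reach 1.71 (Abca1), while no gene of sterol sensing is filled.

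Other gene groups moved in the same libraries. Of 9 measured interferon response genes, 7 were higher than wt and 1, *Irf7*, was higher than siScramble, with median log2 ratios of 1.13 and 0.33. Among all probes, 7.04% were higher than wt and 1.22% higher than siScramble. Of 10 measured thyroid markers, *Pax8* among them, 8 were lower and 1 higher than wt, and 1, thyroglobulin (*Tg*), was lower than siScramble. Lower than wt were 8.23% of all probes, and 0.897% were lower than siScramble. The summed log2 level of the 9 interferon genes was 83.6 to 87.6 in si*Pax8* and 70.3 to 72.0 in wt cells. On the other arrays it was 83.5 to 87.8 in si*Pax8* and 80.3 to 82.8 in siScramble cells. For the 10 thyroid markers it was 117.9 to 119.0 in si*Pax8* and 122.4 to 123.5 in wt cells, and 118.5 to 119.4 in si*Pax8* and 119.8 to 121.5 in siScramble cells. The part of either group in the values of the cholesterol genes was not tested. Markers of other cell types gave 1 call. Of 4 fibroblast, 4 hepatocyte and 2 endothelial genes measured, 0 passed limma against either control, 1 (a fibroblast gene) had an unadjusted p below 0.05 over siScramble, and 3, 2 and 1 of them were above background on no array. Of 2 leukocyte genes *Cd68*, a lysosomal protein, was higher than wt (0.30 ± 0.12, SD, n = 4).

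The probes outside the lists whose 8 replicate values (4 per comparison) ran most like the mean of the 8 cholesterol genes were *Acta1* (Pearson r = 0.981), *Ssbp3* (0.978), *Stard10* (0.976), *Cdh16* (0.975) and *Dgka* (0.971), among 5025 named probes with a mean log2 intensity above 8. This is a description, over points that may share the si*Pax8* samples and that fall into the clusters of the comparisons. *Acta1* was at -0.62 over wt and -0.20 over siScramble. *Cdh16*, a cadherin of thyroid and kidney, was at -0.90 and -0.34, whereas *Ssbp3*, *Stard10* and *Dgka* lay at 0.08, -0.05 and 0.0045 over siScramble.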

How the data were processed

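The authors deposited, per array, the mean fluorescence intensity of each spot and its local background, the intensities processed by the software (Feature Extraction 10.1.1.1 per the file headers), and a table of normalized log2 ratios. That table ran as control over siPax8 (correlations from -0.999 to -0.993 with the ratios computed here), with column medians from -0.00074 to 0.0083; its exact scale is not stated. From the mean intensities, ratios were computed by limma (version 3.58.1, under R 4.3.3), a tool that the submitters' processing notes also name: normexp with an offset of 50, loess within arrays, removal of 1639 control spots of 45018, quantile normalization between channels, and removal of the 171 to 308 outlier spots per array. Between 52% and 60.8% of spots per array and channel were well above background; the number of arrays limits the precision. Repeated spots and dye swaps were averaged as log2 ratios of siPax8 over control, and 4 values per probe were fitted with lmFit and eBayes for each control. Accessions gave names to 10768 probes (RefSeq, GRCr8); a gene's value is the mean of its probes. Arrays of one replicate number in opposite dyes deviated together (correlations from 0.12 to 0.58) and were taken as pairs. Labels call the replicates biological. Named genes were the 8 members, list genes with every probe called in at least 1 comparison, *Srebf1*, *Srebf2*, *Pax8* and the 5 nearest in likeness; other list genes and markers named were chosen after their values were seen. Members and lists were chosen with earlier results of these data known, and some listed genes are not reported here. Scripts were tested on simulated data. Alternatives were the processed intensities, no background subtraction, loess alone, the authors' table, single dyes, a dye term, replicate and slide blocks, a joint fit, a filter on background, and leaving out replicates.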

Additional observations from a re-analysis of the deposited data

Results flagged for a closer look

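Among 60 sets of 4 replicate values (30 named genes, each over wt and over siScramble), 2 had a value far from the rest by Dixon's criterion, where chance gives about 1 in 20. *Me1* over wt, which encodes malic enzyme, was at -0.68 in replicate 1, with the others from -0.43 to -0.39. *Pggt1b* over siScramble, a subunit of a prenyltransferase, was at -0.017 in replicate 4, with the others from -0.09 to -0.08.

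The log2 ratio over wt differed from that over siScramble for 7 of these genes by limma. With the replicate number as a block 11 differed, the added ones being *Rabggtb*, *Fads2*, *Me1* and *Pax8*. Without replicate 2, 3 or 4 the count was 3, 2 and 3, with *Abca1* and *Thrsp* in each. It was lower over wt by 0.36 for *Idi1* (difference -0.36, adjusted p = 0.00267) and for *Hsd17b7* (-0.31, adjusted p = 0.00205). It was higher over wt for *Abca1* (1.04, adjusted p = 6.18e-07), *Abcg1* (0.40, adjusted p = 0.00207), *Lcat* (0.40, adjusted p = 0.00218), *Pggt1b* (0.21, adjusted p = 0.00318) and *Thrsp* (0.68, adjusted p = 2.54e-05). For *Thrsp*, a lipogenic nuclear protein, all 4 replicates were above 0 over wt and all 4 below 0 over siScramble.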

How the results depend on the processing

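Over 15 alternatives, the log2 ratios of the 8 genes stayed below 0 in 239 of 240 values; *Hmgcs1* over siScramble with siPax8 in Cy3 was at 0.02. The calls moved more. With the software's processed signals, 1 of the 8 genes was lower than wt and 0 than siScramble, where the median was -0.21, none differed between the comparisons, and 534 and 0 probes were lower and 771 and 11 higher than wt and siScramble. With siPax8 in Cy5 alone, 3 and 0 genes were lower, with medians of -0.20 and -0.12, and 75 probes were lower and 140 higher than siScramble. With siPax8 in Cy3 alone, the medians were -0.40 and -0.21, 2 genes were lower than siScramble, 1793 probes were lower and 1699 higher than wt, and 1870 lower and 1715 higher than siScramble; *Npc2* over wt turned to -0.0034 (adjusted p = 0.983). The other changes of these counts under a single setting concern siScramble. There the number of genes lower was 2 without background subtraction, 0 with loess alone (median -0.18, 179 probes lower), 0 among probes well above background, 2 with slide as a block (1225 probes lower, 1206 higher), 4 with a dye term (1319 and 1280), 4 in a joint fit (867 and 885), 2 when one probe sufficed and 4 at an adjusted p below 0.05. The median from the authors' table was -0.21.

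With the replicate number as a block over 8 arrays, 6 genes were lower than wt (*Cyp51* was not, adjusted p = 0.00782) and 0 than siScramble, with 811 probes lower and 893 higher. Outside the 8 genes, *Acat2*, *Npc2* and *Gpam* lost their calls over wt with this block (adjusted p = 0.00646, 0.0307 and 0.00991). Across the comparisons the numbers gave correlations of deviations of 0.40, 0.18, 0.04 and 0.57. These overlap with the correlations of the dye orientations (0.12 to 0.58), so they do not settle whether the numbers are pairs. The labels do not say that same-numbered replicates share an RNA, and the main test left them unpaired. With that block 1 of the 8 genes differed, as without it. For *Pax8* the adjusted p of the difference by limma was 0.183 without the block and 0.00171 with it. Leaving out each replicate gave 5 to 7 genes lower than wt and 0 than siScramble, with medians from -0.21 to -0.19 there, 1724 to 3810 probes lower and 1651 to 3172 higher than wt, 35 to 124 lower and 84 to 288 higher than siScramble, and 0 to 1 genes that differed between the comparisons. The cause of these changes was not tested. The members were bright on all arrays, well above background; for dim genes such as *Vldlr*, above background on no array, no change could be measured.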

Other observations

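Genes of the neighbouring lipid pathways did not share one direction. Of 9 measured genes of the isoprenoid branch, which draws on the product of *Fdps*, 2 were higher than wt, *Rabggtb* (0.26 ± 0.05, SD, n = 4) and *Pggt1b* (0.14 ± 0.03, SD, n = 4), both subunits of enzymes that attach isoprenoids to proteins, and 0 were lower by limma, at an unadjusted p below 0.05 as well. Among all probes, 7.04% were higher and 8.23% lower than wt. The call of *Pggt1b* was lost without any one replicate (adjusted p from 0.00529 to 0.0371), which left 1 gene higher. Over siScramble 0 of the 9 passed limma, with 2 lower and 1 higher at an unadjusted p below 0.05. The median of the branch was 0.05 over wt, on the other side of 0 from that of the synthesis enzymes (-0.27).

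Of 11 measured genes of fatty acid synthesis, 3 were lower than wt: *Me1*, which supplies NADPH (-0.48 ± 0.13), the desaturase *Fads2* (-0.31 ± 0.10) and the acyltransferase *Gpam* (-0.16 ± 0.04; SD, n = 4 each). The call of *Gpam* was lost without replicate 2, 3 or 4 (adjusted p from 0.0113 to 0.0259) and with the replicate block (0.00991). *Thrsp* was higher (0.54 ± 0.09, SD, n = 4). Among all probes, 8.23% were lower and 7.04% higher than wt. Over siScramble 0 of the 11 passed limma, with 6 lower and 1 higher at an unadjusted p below 0.05. *Fasn*, fatty acid synthase, was at 0.02 over wt and -0.21 over siScramble, where its probes had adjusted p of 0.00375 and 0.0232.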
